A study of Mus musculus with 6 samples.

Results

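Respiratory chain genes were taken from the deposited table by their symbols: Nduf genes of the a, b, c, s and v series, Sdha to Sdhd, Uqcr genes, Cox4 to Cox8 genes with a letter a, b or c, and the mitochondrially encoded mt-Nd, mt-Cytb, mt-Co and mt-Atp genes, with symbols ending in -ps left out. A gene also had to average at least 10 normalised counts over the 6 libraries. This gave 74 genes of the 17391 that passed the same minimum and of 78298 rows in all. Of the 74 genes, 61 lie in the nuclear genome (36 in complex I, 4 in complex II, 8 in complex III and 13 in complex IV) and 13 in the mitochondrial genome (7 in complex I, 1 in complex III, 3 in complex IV and 2 in complex V). A further 4 symbols matched but averaged less than 10: Cox8b, at 8.05 normalised counts the nearest below the minimum, Cox7b2 at 1.84, and Cox8c and Cox6c2, listed at 0. The lowest members above the minimum were Cox7a1 at 21.3 and Cox6b2, a subunit isoform of testis, at 34.7. The pattern does not match Cox4i1, Cox4i2, Ndufab1 or Cyc1, which also encode chain subunits and are given with the other genes of the pathway. Ndufa4 carries a complex I symbol and is counted there, although its protein is known as a subunit of complex IV.

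The respiratory chain of the inner mitochondrial membrane passes electrons from NADH (complex I) and succinate (complex II) through ubiquinone to complex III, cytochrome c and complex IV, which reduces oxygen. Complexes I, III and IV pump protons, and complex V uses their return to make ATP. Complexes I, III, IV and V join core subunits read from the circular mitochondrial genome with subunits read from nuclear chromosomes and imported, whereas complex II is nuclear throughout. Neurons draw most of their ATP from this chain.

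The libraries were made from polyadenylated RNA from the brains (left side) of male mice, 3 homozygous for the Top2b-low allele and 3 wild type, and the comparison asked what lower Top2b expression does to the adult brain transcriptome. Top2b encodes topoisomerase IIβ, a DNA topoisomerase of postmitotic cells such as neurons. Top2b-low mice carried on both copies an auxin-inducible degron, a tag for induced protein degradation, which CRISPR/Cas9 had put at the 5′ end of the coding sequence. Wild-type mice lacked it, and neither genotype received a compound. The protocols give an age of 10 weeks and the series text 3.5 months. The sources used here give neither the strain background nor the number of founder lines. The library of Top2b-low replicate 3 has a name ending in dNdN in place of Homo, and the labels do not explain it. The names of this library and of wild type replicate 3 begin with N22, those of the other 4 with X or NT.

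Recovered counts, called reads here, totalled 17237421 to 35246703 per Top2b-low library and 16963067 to 28629911 per wild-type library, the deepest of each genotype being the one named N22. Top2b (ENSMUSG00000017485, chromosome 14) had 2152, 2314 and 1965 normalised counts in Top2b-low replicates 1 to 3 and 3160.4, 3014 and 2485 in wild type replicates 1 to 3, so the genotypes did not overlap. Its log2 fold change was -0.42 (SE 0.11), with an unadjusted p of 0.00629 and a Benjamini-Hochberg adjusted p of 1.00 in limma's test across all 17391 genes. The 2 libraries named N22 differed from the other 4 in 4864 genes, 28.0% of those tested (limma with genotype in the model, adjusted p under 0.05), with 1963 higher and 2901 lower. Top2b itself was among the lower genes in that fit, at -0.25 log2 units (SE 0.063, adjusted p = 0.0161). After quantile normalisation the split over all tested genes was 2438 higher and 2377 lower. All 10 cerebellar markers were among the genes lower there, and none was listed at 0 in all libraries. Their summed level was 4835 normalised counts in Top2b-low replicate 3 and 5304 in wild type replicate 3, against 30602 to 38530 in the other libraries. Of the astrocyte markers, 5 of 7 were lower in the libraries named N22 (summed level 36205 to 37787, against 48392 to 51321), while 1 of 8 neuron markers was (135841 to 146886, against 138870 to 143824). In bulk tissue, fewer cells of a type and less RNA per cell cannot be told apart. Blood markers summed to 114262, 30385 and 4287 in Top2b-low replicates 1 to 3 and to 9193, 10495 and 3705 in wild type replicates 1 to 3.

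No respiratory chain gene passed a test between the genotypes over all 6 libraries. Of the 74 genes, 0 passed an adjusted p of 0.05 in limma on log2(normalised count + 1), a scale that understates the change of low genes, and the background over all tested genes was likewise 0%. At an unadjusted p under 0.05 limma left 0 of the 74, against 1.51% of all tested genes. DESeq2 and edgeR (quasi-likelihood test), run on the reads, also called 0 genes, with 1 and 0 of the 74 at an unadjusted p under 0.05. The adjusted p in limma was 1.00 for every member, and the smallest unadjusted p was 0.0794, for mt-Co2. The 3 values of one genotype lay outside those of the other for 2 of the 74, Sdha and Uqcrfs1, both lower in Top2b-low mice. That is the case for 5.74% of all tested genes, and lower for 3.04%.

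The nuclear and the mitochondrial genes had opposite signs on balance, within errors much wider than the differences. The log2 fold change was below 0 for 51 of the 61 nuclear genes, against 50.6% of all tested genes, with a median of -0.054. It was above 0 for 12 of the 13 mitochondrial genes, with a median of 0.11, and the median of all tested genes was -0.0021. Under the other scalings tried, between 52 and 59 nuclear genes were below 0 and between 11 and 12 mitochondrial genes above 0, and edgeR and DESeq2 gave 37 and 40 nuclear genes below 0. Genes of one genome shared their libraries, so their signs are not independent. The 95% interval of the fold change had a median lower bound of -0.49 and a median upper bound of 0.35 for nuclear genes, and of -0.29 and 0.43 for mitochondrial genes. These intervals come from the fit without an N22 term, and so hold the difference between the libraries named N22 and the others. With that term the median bounds were -0.25 and 0.14 for nuclear genes and -0.11 and 0.30 for mitochondrial genes, and with the replicate block they were -0.23 and 0.11, and -0.086 and 0.28. The interval of 1 of the 74 genes, mt-Co2, then lay above 0 with either term, and it did not pass after adjustment.

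**Figure D1:**
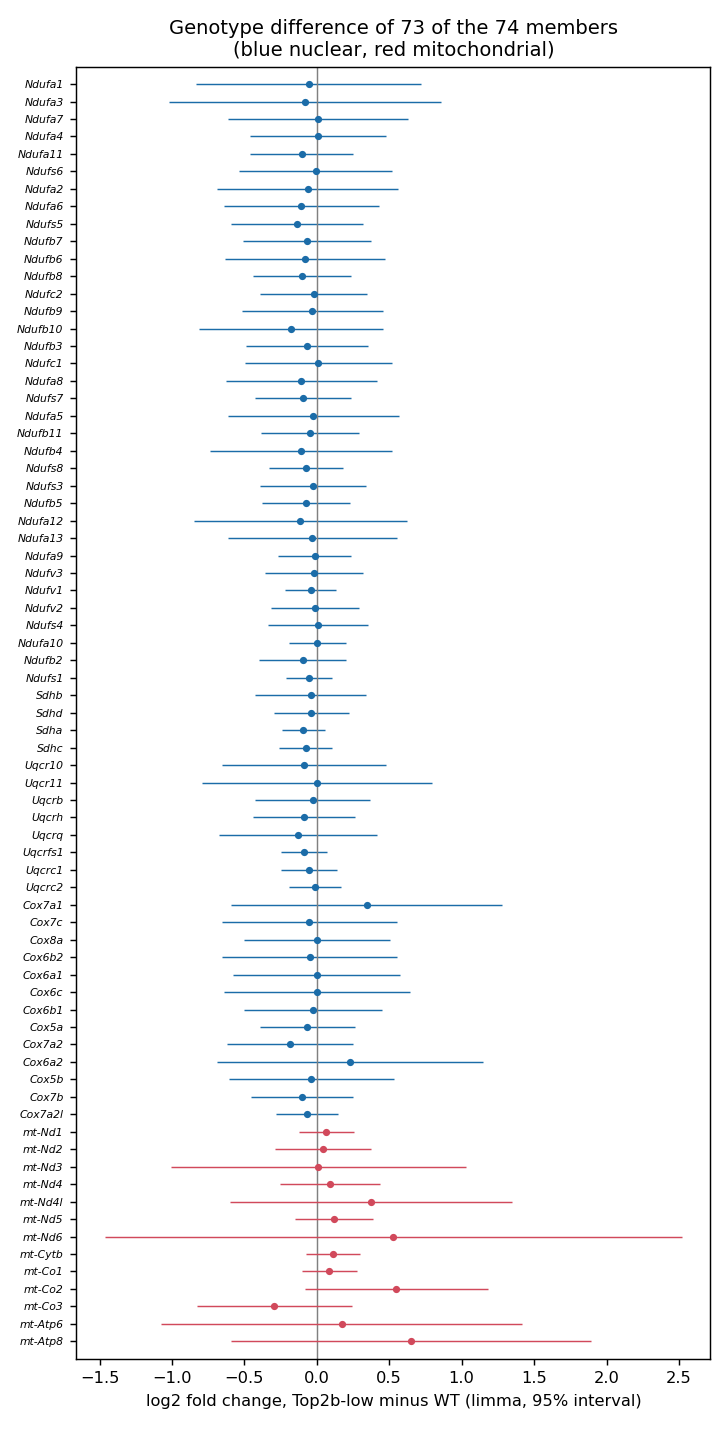
Log2 fold change (Top2b-low minus WT) of 73 of the 74 genes with limma's 95% interval, nuclear genes in blue by complex with the shortest transcript on top in each, and mitochondrial genes in red. All 73 intervals shown include 0, and the widest belong to mt-Nd6, mt-Atp6 and mt-Atp8.

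Per library, the nuclear genes moved together, and the spread lay within the genotypes. The mean log2 deviation of the 61 genes from their 6-library means was -0.059, -0.33 and 0.32 in Top2b-low replicates 1 to 3, against -0.0092, -0.12 and 0.20 in wild type replicates 1 to 3. This gave -0.023 ± 0.33 in Top2b-low mice and 0.023 ± 0.16 in wild type (SD, n = 3 each). Top2b-low replicate 2 was thus the lowest and Top2b-low replicate 3 the highest of all 6 libraries. Replicate 2 held the lowest value for 48 of the 61 genes, against 18.1% of all tested genes, and replicate 3 the highest for 44, against 22.5%. Both held for 38 of the 61, against 6.94%.

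The sign of the difference between genotypes turned with the libraries compared. In the 4 libraries not named N22 the mean log2 difference of the nuclear genes was -0.13, with 57 of 61 genes below 0, against 51.7% of all tested genes. In the pair named N22, which has no replicate, it was 0.13, with 45 of 61 above 0, against 51.8%. Leaving out Top2b-low replicate 2 gave a mean difference of 0.11 and leaving out Top2b-low replicate 3 gave -0.22. Without wild type replicate 3, 43 of the 61 nuclear genes were above 0, with a median of 0.036. The mitochondrial genes differed by a mean of -0.038 in the 4 libraries, where signs were mixed, with 7 of 13 below 0 and a median of -0.0084. In the pair the mean was 0.65 and the median 0.33, and 13 of 13 were above 0.

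**Figure D2:**
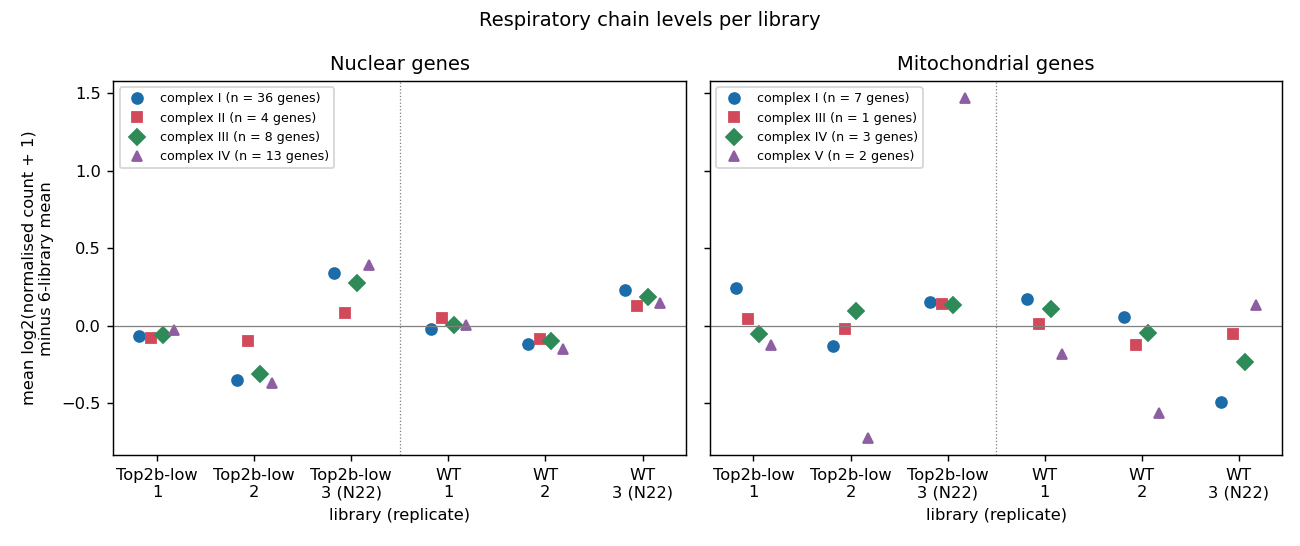
Mean log2(normalised count + 1) of the genes of each complex minus their mean over the 6 libraries (y axis), for nuclear genes (left panel) and mitochondrial genes (right panel), in Top2b-low and then WT libraries (x axis, N22 marks names that begin so). Nuclear complexes I, III and IV are lowest in Top2b-low replicate 2 and highest in Top2b-low replicate 3, and complex II varies less.

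Complex I takes electrons from NADH. Its 36 nuclear genes averaged a log2 deviation of -0.069, -0.35 and 0.34 in Top2b-low replicates 1 to 3, against -0.023, -0.12 and 0.23 in wild type replicates 1 to 3, so that both libraries named N22 were above the other 4. The fold change between genotypes was below 0 for 31 of 36 and ran from -0.18 to 0.011. The 2 genes with the lowest fold change were the accessory subunits Ndufb10 and Ndufs5. Ndufb10 (chromosome 17) had 1772, 1263 and 2798 normalised counts in Top2b-low replicates 1 to 3, against 2065, 1785 and 2466 in wild type replicates 1 to 3, a log2 fold change of -0.18 (SE 0.27). Ndufs5 (chromosome 4) had 1296, 957 and 1642 in Top2b-low mice, against 1357, 1245 and 1600.2 in wild type (-0.14, SE 0.20). For both genes the lowest and the highest value were Top2b-low replicates 2 and 3, and the genotypes overlapped. The highest fold changes belonged to Ndufc1 and Ndufs4, and were close to 0. Ndufs4, an accessory subunit whose loss gives mice a fatal encephalopathy, had 858, 789 and 1135 normalised counts in Top2b-low mice, against 869.7, 861 and 1007 in wild type (0.0088, SE 0.15). Ndufc1 had 603, 469.8 and 844 in Top2b-low mice, against 583, 546 and 733 in wild type (0.011, SE 0.22). Per kb of transcript, Ndufa4 had the highest level of the 36, at 5678 normalised counts per kb over the 6 libraries, and the range over the others began at 485. Ndufa4 had 2756, 2343 and 4066 normalised counts in Top2b-low mice, against 2788, 2697 and 3441 in wild type (0.0071, SE 0.20).

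Complex II, succinate dehydrogenase, is also an enzyme of the citric acid cycle. Its 4 genes had fold changes from -0.095 to -0.039, and none passed the test. The flavoprotein gene Sdha (ENSMUSG00000021577, chromosome 13) had 8811, 8669 and 8952 normalised counts in Top2b-low replicates 1 to 3, against 9374, 9155 and 9706 in wild type replicates 1 to 3. Each Top2b-low value was below each wild-type value. The means were 8811 ± 142 in Top2b-low mice and 9412 ± 277 in wild type (SD, n = 3 each), a log2 fold change of -0.095 (SE 0.064, 95% interval -0.24 to 0.054, unadjusted p = 0.177). Sdhb, the iron-sulphur subunit, had 1502, 1380.3 and 2016 in Top2b-low mice, against 1609, 1466 and 1934 in wild type (-0.042, SE 0.16). The membrane anchor gene Sdhc had 1538, 1545 and 1478 in Top2b-low mice, against 1715, 1520.2 and 1585 in wild type (-0.078, SE 0.078). The other anchor gene, Sdhd, had 1160.4, 1195 and 1377 in Top2b-low mice, against 1302, 1132 and 1403 in wild type (-0.039, SE 0.11). Values of these 3 genes overlapped between the genotypes, and Sdhb and Sdhd were highest in the libraries named N22. Sdha and Sdhc, with transcripts of 2900 and 3171 bases, varied less among the libraries than Sdhb, with 1142.

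Complex III passes electrons from ubiquinol to cytochrome c, and its 8 nuclear genes had fold changes from -0.13 to 0.0031. The Rieske iron-sulphur protein gene Uqcrfs1 (ENSMUSG00000038462, chromosome 13) had 1873, 1833 and 1903 normalised counts in Top2b-low replicates 1 to 3, against 2043, 1941 and 1988 in wild type replicates 1 to 3. Its genotypes did not overlap. The means were 1870 ± 34.9 in Top2b-low mice and 1991 ± 50.9 in wild type (SD, n = 3 each), a log2 fold change of -0.091 (SE 0.068, 95% interval -0.25 to 0.069, unadjusted p = 0.224). The small subunit gene Uqcrq had 1447, 1027 and 1901 in Top2b-low mice, against 1461, 1316 and 1929 in wild type (-0.13, SE 0.23). Uqcr11, another small subunit, had 1053, 729.6 and 1941 in Top2b-low mice, against 1047, 961 and 1473 in wild type (0.0031, SE 0.34). Both were lowest in Top2b-low replicate 2 and highest in a library named N22. The core protein gene Uqcrc2 had 3480.0, 3574 and 3898 in Top2b-low mice, against 3735, 3479 and 3828 in wild type (-0.012, SE 0.078). Uqcrh, the hinge protein gene and at 3669 normalised counts per kb the highest of the 8, had 1989, 1537 and 2358 in Top2b-low mice, against 2149, 1936 and 2072 in wild type (-0.086, SE 0.15).

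Complex IV, cytochrome c oxidase, had 13 nuclear members with fold changes from -0.19 to 0.34. Both ends of that range overlapped between the genotypes. Cox7a2, the subunit isoform of most tissues, had 1537, 1097 and 1899.7 normalised counts in Top2b-low replicates 1 to 3, against 1790.3, 1565 and 1687 in wild type replicates 1 to 3, a log2 fold change of -0.19 (SE 0.19). Cox7a1, its counterpart of heart and skeletal muscle, had 32.0, 17.0 and 21.9 in Top2b-low mice, against 27.9, 17.5 and 11.4 in wild type (0.34, SE 0.40). The other muscle isoform, Cox6a2, had 59.1, 42.5 and 93.5 in Top2b-low mice, against 37.7, 43.9 and 87.5 in wild type (0.23, SE 0.39). Levels of these muscle isoforms were low, at 54.2 and 89.2 normalised counts per kb, against 7912 for Cox8a, the highest of the 13. Cox8a had 4000.5, 3391 and 5746 normalised counts in Top2b-low mice, against 4104, 3574 and 5293 in wild type (0.0018, SE 0.21). Cox7b, on chromosome X, had 2041, 1695 and 2539.8 in Top2b-low mice, against 2195, 2044 and 2424 in wild type (-0.10, SE 0.15).

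**Figure D3:**
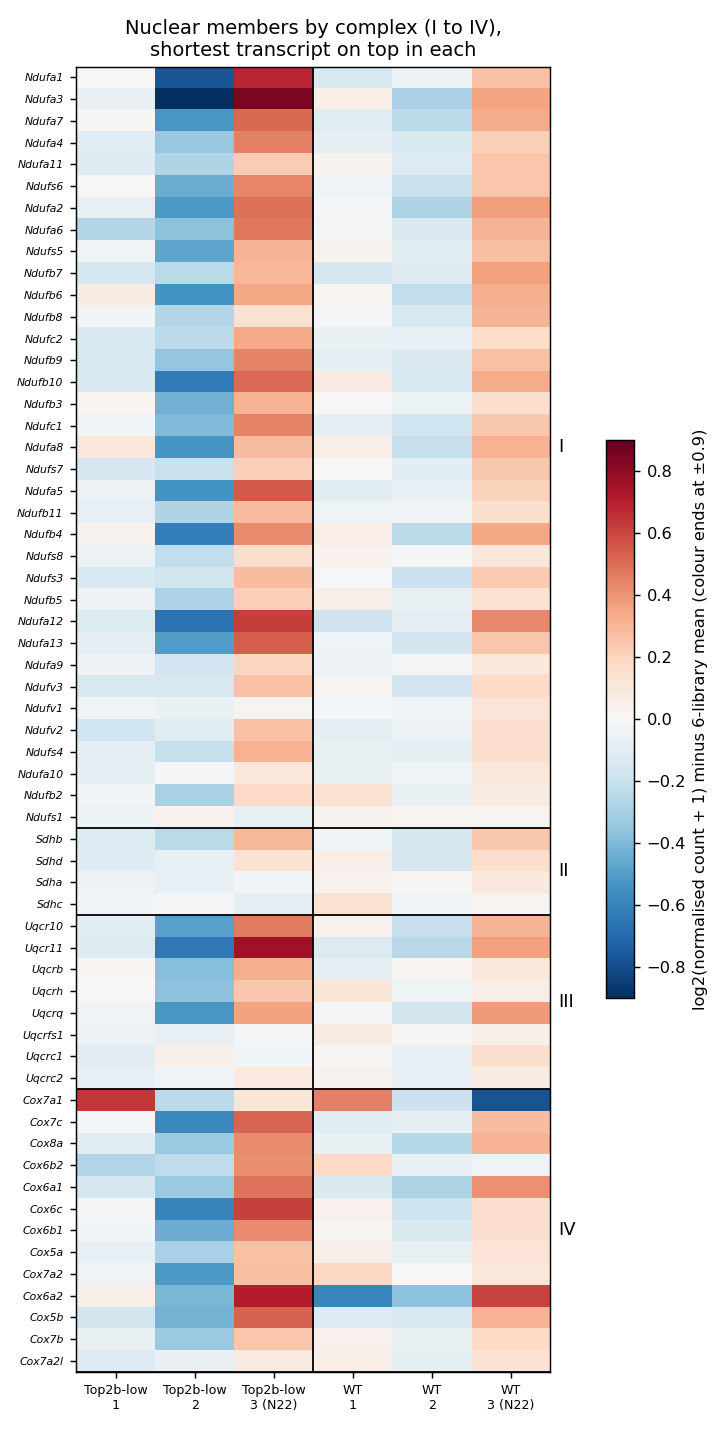
Each row is one of 60 of the 61 nuclear genes and each column a library, Top2b-low on the left and WT on the right, with colour for log2(normalised count + 1) minus the gene's 6-library mean. Within complexes I to IV the genes run from the shortest transcript (top) to the longest, and the strongest colours of Top2b-low replicates 2 (low) and 3 (high) lie towards the short end.

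The mitochondrial genome gave a larger part of each library than the nuclear members. Its 13 genes took 4.42%, 4.50% and 4.73% of the reads of Top2b-low replicates 1 to 3, against 4.55%, 4.17% and 4.14% in wild type replicates 1 to 3. The 61 nuclear genes took 0.480%, 0.421% and 0.623% in Top2b-low mice, against 0.505%, 0.469% and 0.600% in wild type. The exact 95% binomial interval reached at most from 4.54% to 4.56% for wild type replicate 1, so counting error is far below the spread between mice. Neither share separated the genotypes: the mitochondrial share of Top2b-low replicate 1 lay below that of wild type replicate 1. These mitochondrial shares leave out counts given to near-identical copies on chromosome 1, described next. The copies Gm28661, Gm28437 and Gm10925 averaged 123413, 122450 and 74730 normalised counts, against 842507 to 986738 per library for the 13 genes. With the copies added the shares would be larger.

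Reads of several mitochondrial genes were divided in the deposited table between the gene and a near-identical unprocessed pseudogene on chromosome 1. Of the 13 genes, 7 had such a copy in the GENCODE vM21 transcripts, at 97% identity or more over at least 100 bases, with counts above a mean of 10. Reads that match both entries equally cannot be told apart by their letters. To show how alike they are, the first 60 bases are printed of the cytochrome oxidase subunit gene mt-Co2 (mitochondrial genome) and of Gm28661 (chromosome 1), identical over all 681 aligned bases, and of mt-Nd3 and Gm28438, which differ at 1 base of 345, given in capitals.
mt-Co2: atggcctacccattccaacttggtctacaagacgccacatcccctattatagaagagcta
Gm28661: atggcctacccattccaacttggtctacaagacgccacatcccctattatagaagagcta
mt-Nd3: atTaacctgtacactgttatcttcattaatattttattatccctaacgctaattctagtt
Gm28438: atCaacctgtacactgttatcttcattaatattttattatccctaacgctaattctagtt

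The copy held most of the counts in 5 of these pairs. For mt-Co2 the mitochondrial entry had 9.66%, 20.6% and 8.07% of the pair's counts in Top2b-low replicates 1 to 3, against 10.1%, 9.69% and 6.47% in wild type replicates 1 to 3. For mt-Atp6 and its copy Gm10925, identical over 678 bases, the entry had 14.1%, 10.6% and 39.7% in Top2b-low mice, against 13.9%, 10.6% and 32.2% in wild type. The division thus varied between libraries, the entry's share of mt-Co2 being highest in Top2b-low replicate 2 and that of mt-Atp6 in both libraries named N22. For mt-Co1 and mt-Nd4 at least 98.7% and 99.9% of the counts stood with the mitochondrial gene. Levels and differences of mt-Co2, mt-Co3, mt-Atp6, mt-Nd3 and mt-Nd4l are therefore uncertain as deposited, and sums with the copy are given beside some of them. Among nuclear members, Ndufb4 shares 390 bases with the processed pseudogene Ndufb4c on chromosome 15 and held 42.3% to 48.2% of their joint counts. The log2 fold change of Ndufb4 was -0.11 as deposited and -0.088 with the copy added.

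**Figure D4:**
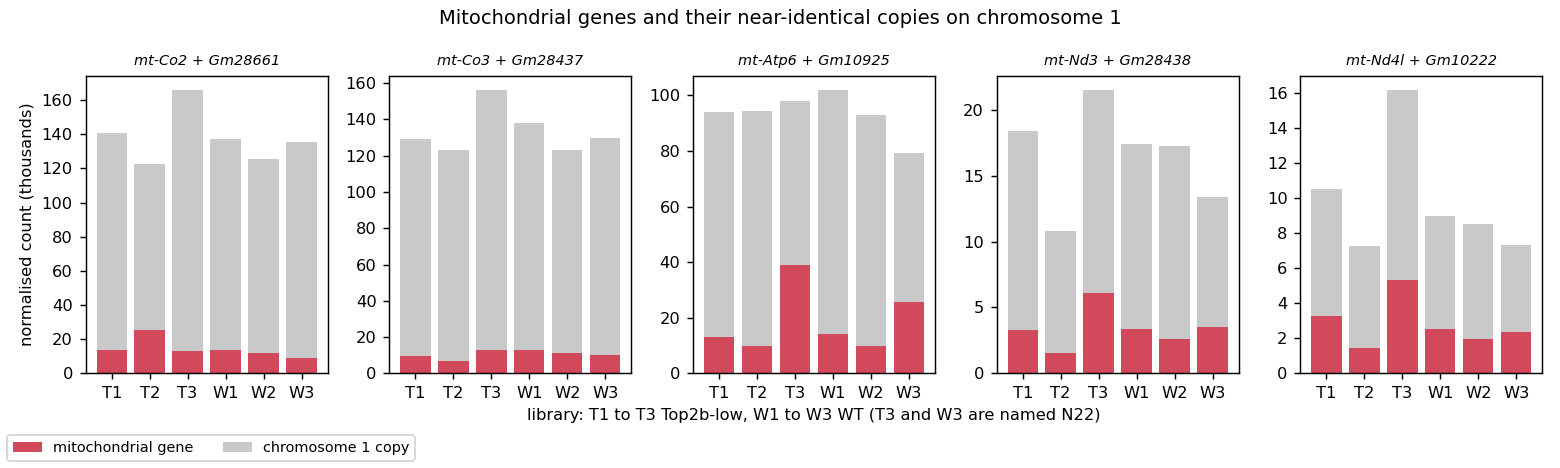
Normalised counts divided by 1000 (y axis) of 5 mitochondrial genes (red) stacked with those of their chromosome 1 copies (grey), for Top2b-low libraries T1 to T3 and WT libraries W1 to W3. The red part of mt-Co2 is highest in T2 and that of mt-Atp6 in T3 and W3. Relative to their size, the summed bars of both differ less among libraries than the red parts.

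The cytochrome oxidase genes of the mitochondrial genome had the smallest p and the only fold change below 0 among the 13. Mt-Co2 (ENSMUSG00000064354) had 13622, 25231 and 13399 normalised counts in Top2b-low replicates 1 to 3, against 13809, 12143 and 8761 in wild type replicates 1 to 3, a log2 fold change of 0.55 (SE 0.27, 95% interval -0.083 to 1.18). Top2b-low replicate 2 alone stood apart, and with the copy added the values were 140957, 122772 and 165943 in Top2b-low mice, against 137063, 125318 and 135389 in wild type (0.10, SE 0.12). Mt-Co3 had 9627, 6636 and 13104 in Top2b-low mice, against 13015, 11389 and 10399.6 in wild type (-0.29, SE 0.23). With its copy the sign turned, at 0.058 (SE 0.11), and neither value passed the test. Mt-Co1, the catalytic subunit gene, had 391106, 416232 and 428254 in Top2b-low mice, against 400696, 378198 and 385272 in wild type (0.085, SE 0.081). Mt-Cytb, the cytochrome b gene of complex III, had 123332, 117888 and 131990 in Top2b-low mice, against 120546, 109857 and 114948 in wild type (0.11, SE 0.081).

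The 7 complex I genes of the mitochondrial genome encode its membrane arm, where protons are pumped. All 7 fold changes were above 0, from 0.011 to 0.53, except that mt-Nd3 stood marginally below 0 with scaling to the library total. In the 4 libraries not named N22, mt-Nd2, mt-Nd3, mt-Nd4 and mt-Nd4l were below 0, and without Top2b-low replicate 3 so were 5 of the 13 mitochondrial genes. None passed the test, and each gene overlapped between genotypes. Mt-Nd1 had 96931, 98008 and 94273 normalised counts in Top2b-low replicates 1 to 3, against 97878, 93952 and 84859 in wild type replicates 1 to 3 (0.066, SE 0.081). Mt-Nd2 had 65983, 66421 and 60259.8 in Top2b-low mice, against 70718, 69140.3 and 49386 in wild type (0.043, SE 0.14). Mt-Nd4 had 130201, 120436 and 110367 in Top2b-low mice, against 130484, 121589 and 90219.5 in wild type (0.091, SE 0.15). In these 3 genes wild type replicate 3 was the lowest of the 6 libraries. Mt-Nd5 had 83910.5, 84410.1 and 77215 in Top2b-low mice, against 87891, 74209 and 65463 in wild type (0.12, SE 0.12). The short genes mt-Nd3 and mt-Nd4l peaked in Top2b-low replicate 3. Mt-Nd3 had 3304, 1554 and 6097 in Top2b-low mice, against 3366, 2603 and 3489 in wild type (0.011, SE 0.43). Mt-Nd4l had 3289, 1445 and 5309 in Top2b-low mice, against 2526, 1965 and 2331 in wild type (0.37, SE 0.42). Mt-Nd6 (ENSMUSG00000064368), the one protein gene on the light strand, had 929, 776 and 296 in Top2b-low mice, against 751, 954 and 98.9 in wild type (0.53, SE 0.85).

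Complex V was represented by its 2 mitochondrial genes, whose reading frames overlap on one transcript. Mt-Atp6 (ENSMUSG00000064357), a subunit of the proton channel, had 13244, 9945 and 38867 normalised counts in Top2b-low replicates 1 to 3, against 14188, 9873 and 25542 in wild type replicates 1 to 3 (0.17, SE 0.53). With its copy these became 93852, 94188 and 97877 in Top2b-low mice, against 101900, 92920.2 and 79301 in wild type (0.068, SE 0.10). Mt-Atp8 had 2358, 1361 and 7306 in Top2b-low mice, against 2025, 1717 and 1738 in wild type (0.65, SE 0.53). Its highest value, in Top2b-low replicate 3, stood apart from the other 5.

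Per kb of transcript and with the copies added, the mitochondrial levels over the 6 libraries were highest for mt-Co1, at 260073 normalised counts per kb, then mt-Co2 (201618), mt-Co3 (169828) and mt-Atp6 (137062). Next were mt-Cytb (104685), mt-Nd1 (98555), mt-Nd4 (85109), mt-Nd2 (61321), mt-Nd3 (47263), mt-Nd5 (43229) and mt-Nd4l (32980). Mt-Atp8, at 204 bases the shortest, followed at 13484, and mt-Nd6 was last at 1222. Mt-Atp8 and mt-Atp6 lie on one transcript and yet differed widely, so the level per kb of so short an entry is uncertain. The order of neighbours was not tested. The oxidase genes thus stood above the complex I genes of the same genome. The nuclear members ran from 54.2 to 7912 normalised counts per kb.

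Both libraries named N22 had more nuclear respiratory chain RNA than the other 4. With genotype in the model, limma called 43 of the 61 nuclear genes higher there, and with mt-Atp6 44 of the 74, against 11.3% of all tested genes. It called 3 of the 74 lower, all mitochondrial, against 16.7%. By complex, 29 of 36 nuclear genes of complex I, 2 of 4 of complex II, 3 of 8 of complex III and 9 of 13 of complex IV were called higher. The median log2 difference of the nuclear genes was 0.38, and that of all tested genes was -0.0046. The largest of them was Cox6a2, at 0.99 (SE 0.20, adjusted p = 0.00633). Cox8a rose by 0.55 (SE 0.084, adjusted p = 0.00133) and Uqcr11 by 0.85 (SE 0.15, adjusted p = 0.00313). Sdha, Uqcrfs1 and Uqcrc2 did not pass, at 0.051, 0.018 and 0.12. Cox7a1 was the one nuclear gene with a large difference below 0, at -0.50 (SE 0.38), and it did not pass either. EdgeR called 49 of the 74 higher, against 14.0% of all tested genes, and DESeq2 40, against 3.96% of 35817. With no filter limma called 29 higher and 1 lower, against 3.76% and 5.98%. Without the intensity trend it called 10 higher and 1 lower, against 4.59% and 7.95%. Leaving out either replicate 3 leaves 1 library named N22, which is then assumed to vary like the others. Without Top2b-low replicate 3 limma called 5 of the 74 higher, against 2.16%: Cox8a passed (0.47, adjusted p = 0.0404), and Uqcr11 (0.55, adjusted p = 0.0914) and Cox6a2 (1.09, adjusted p = 0.0647) did not. Without wild type replicate 3 it called 37, against 3.90%, and Cox6a2 did not pass (0.89, adjusted p = 0.109). The 2 libraries were also the deepest of their genotypes and had the low cerebellar and astrocyte markers given above. Markers of oligodendrocytes were called lower there for 2 of 7 (summed level 115371 to 122188, against 124554 to 137158) and blood genes for 4 of 5. RNAs known to stay in the nucleus were called higher for 3 of 6 (210638 to 219163, against 165689 to 196180), with the lowest sum in Top2b-low replicate 2. The part of depth, tissue content and RNA fraction in the difference was not tested.

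Among the mitochondrial genes the libraries named N22 differed in both directions. Mt-Nd6 fell by 2.30 (SE 0.27, adjusted p = 0.000309), and the values given above show 296 and 98.9 in the libraries named N22, against 751 to 954 in the others. Alone among the mitochondrial members it lies on the minus strand, and the strand setting of the counting was not given. The level and the fall of mt-Nd6 in this polyadenylated RNA are uncertain to that extent. Mt-Nd4 fell by 0.33 (adjusted p = 0.0205) and mt-Nd2 by 0.32 (adjusted p = 0.0206). Both calls ended when any 1 of the wild-type replicates was left out, with differences of -0.29 and -0.29 without replicate 1, -0.33 and -0.30 without replicate 2 and -0.18 and -0.14 without replicate 3. Both held without any 1 of the Top2b-low replicates, at -0.48 (adjusted p = 0.0245) and -0.50 (adjusted p = 0.0102) without replicate 3. Mt-Atp6 rose by 1.43 (adjusted p = 0.000346) as deposited, but with its chromosome 1 copy added the difference was -0.12 (adjusted p = 0.357). Mt-Atp8 and mt-Co2 did not pass, at 0.96 and -0.52.

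Transcript length moved with these levels. The median length, from GENCODE vM21, was 782 bases for the nuclear members and 2856 for all tested genes. Across the nuclear members, Spearman's rho between length and the library's log2 deviation was -0.13, 0.62 and -0.61 in Top2b-low replicates 1 to 3, and 0.15, 0.46 and -0.42 in wild type replicates 1 to 3. Across all 16515 tested genes with a length it was 0.19, 0.37 and -0.37 in Top2b-low mice, and 0.12, 0.28 and -0.38 in wild type. These are descriptions across genes of one library, which are not independent. In Top2b-low replicate 2 short transcripts were thus lower than long ones, and in both libraries named N22 they were higher, for the members as for all genes. Among all genes under 1000 bases the median deviation was -0.23 in Top2b-low replicate 2 and 0.25 in Top2b-low replicate 3. After a smooth trend on length was removed from each library, 12 of the 74 were called higher in the libraries named N22 and 6 lower, against 10.1% and 11.7% of all tested genes. The median difference of the 74 members was then 0.084, against 0.34 before. For the nuclear genes it was 0.11, against 0.38 before, with 47 of 61 above 0. For the mitochondrial genes it was -0.14, against 0.036 before, with 9 of 13 below 0.

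**Figure D5:**
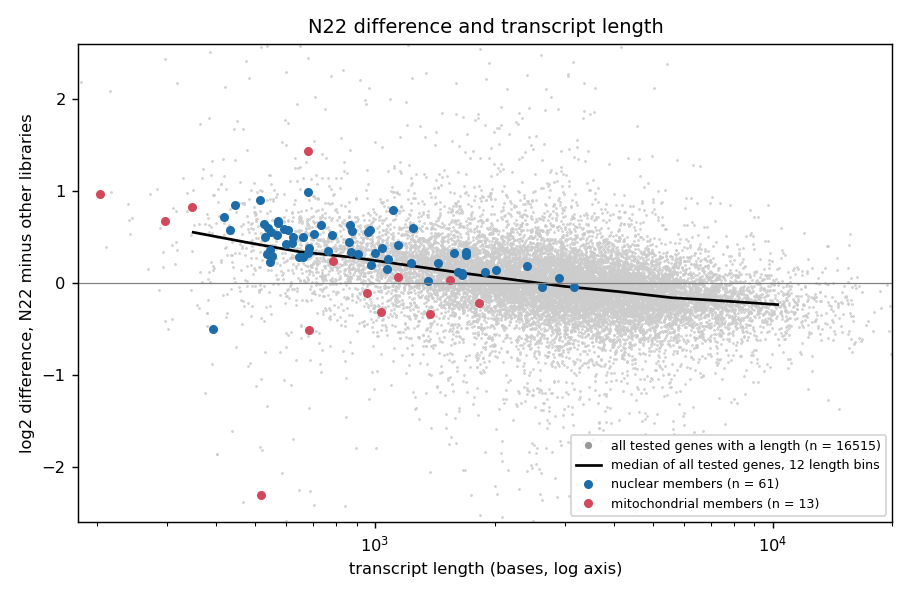
Log2 difference of the libraries named N22 minus the other 4 (y axis) against transcript length in bases (log axis), for the 16515 tested genes with a length (grey), their median in 12 length bins (black line), nuclear members (blue) and mitochondrial members (red). Genes beyond the axis limits are not drawn, and the bins leave out the shortest and the longest transcripts. The black line falls with length, and the 61 blue points lie around it and above it at short lengths.

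Promoter sequences were searched for letters of known regulators. Of the 61 nuclear members, 51 had a promoter in the RefSeq table (GRCm38.p6, from 250 bases before the start to 50 after it). Motifs were sought on both strands for 3 factors known for respiratory chain promoters. The core GCATGCGC of nuclear respiratory factor NRF1 was in 7 of 51 (13.7%), against 3.05% of 27025 genes in the table and 5.43% of the 12110 among them that passed the same minimum of expression. The ETS motif CCGGAAG, bound by GABPA (NRF2), was in 11 (21.6%), against 9.93% and 17.6%. The YY1 motif AAGATGGC was in 7 (13.7%), against 3.19% and 4.68%. The 3 member promoters with both the NRF1 and the ETS letters were those of Cox6a1, Uqcr11 and Sdhb, and they are printed with those motifs in capitals, 5′ to 3′ on the gene's strand. Cox6a1 lies at chr5:115348909-115349208 (minus strand), Uqcr11 at chr10:80406772-80407071 (minus strand) and Sdhb at chr4:140961021-140961320 (plus strand).
Cox6a1: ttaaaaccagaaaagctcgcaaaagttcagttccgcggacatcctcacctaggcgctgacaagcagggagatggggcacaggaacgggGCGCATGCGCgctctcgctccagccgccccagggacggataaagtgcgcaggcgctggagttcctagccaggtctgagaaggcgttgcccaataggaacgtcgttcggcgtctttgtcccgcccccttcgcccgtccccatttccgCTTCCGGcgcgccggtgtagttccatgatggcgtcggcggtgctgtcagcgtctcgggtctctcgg
Uqcr11: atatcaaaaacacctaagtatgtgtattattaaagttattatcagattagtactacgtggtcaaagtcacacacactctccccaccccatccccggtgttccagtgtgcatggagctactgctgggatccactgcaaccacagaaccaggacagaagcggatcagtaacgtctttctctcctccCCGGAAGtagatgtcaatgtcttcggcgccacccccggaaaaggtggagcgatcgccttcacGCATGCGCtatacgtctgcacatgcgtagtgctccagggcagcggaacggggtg
Sdhb: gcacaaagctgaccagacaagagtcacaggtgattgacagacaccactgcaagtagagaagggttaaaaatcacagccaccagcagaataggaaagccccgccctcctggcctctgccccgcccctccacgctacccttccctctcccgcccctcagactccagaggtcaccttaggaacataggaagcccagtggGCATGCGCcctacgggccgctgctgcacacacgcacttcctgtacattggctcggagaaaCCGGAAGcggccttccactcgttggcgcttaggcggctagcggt

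A match of letters is a description and shows no binding. In Cox6a1 the capitals run over 10 bases because the motif's reverse form overlaps it. All 3 genes were called higher in the libraries named N22, at 0.67, 0.85 and 0.41 log2 units, as were 43 of the 61 nuclear members. The difference was above 0 for 58 of the 61. A link between the motifs and that difference was not tested. None of the 3 genes differed by genotype, at -0.00052, 0.0031 and -0.042.

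The other genes of the pathway, from lists of known members, also held no gene past the test between genotypes and no gene at an unadjusted p under 0.05. Of 18 nuclear genes of complex V, 14 had a fold change below 0, with a median of -0.063. Atp5b, the catalytic β subunit, had 20876, 21737 and 20643 normalised counts in Top2b-low replicates 1 to 3, against 22023, 21809.8 and 22175 in wild type replicates 1 to 3, all lower in Top2b-low mice (-0.062, SE 0.063). Such a separation, lower in Top2b-low mice, held for 3.04% of all tested genes. Atp5g1, of the proton-turned ring, had a log2 fold change of -0.12 (SE 0.13) and the stalk subunit gene Atp5o one of -0.089 (SE 0.11). In the libraries named N22, 15 of the 18 were called higher, against the 11.3% of all tested genes given above, as were 2 of the 6 tested chain subunits outside the pattern, Cox4i1 (0.31) and Cyc1 (0.31). Between genotypes these 6 had a median of -0.049, with -0.10 for Ndufab1, -0.057 for cytochrome c (Cycs) and -0.067 for Cox4i1.

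Of 42 assembly factors 11 were called higher in the libraries named N22, against 11.3% of all tested genes, and 0 lower, against 16.7%, with a median log2 difference of 0.11. Between genotypes their median was 0.021, and the smallest p belonged to Bcs1l (0.21, SE 0.14), which inserts the Rieske protein, Uqcc1 (-0.12, SE 0.080), a complex III factor, and Coa7 (0.20, SE 0.14), a complex IV factor. Of 31 genes of mitochondrial transcription, replication and RNA processing 1 was higher (Elac2, 0.25) and 1 lower (Fastkd5, -0.70) in the libraries named N22, against the same 11.3% and 16.7%. Mterf4, of mitochondrial ribosome assembly, had 194, 211 and 233 normalised counts in Top2b-low mice, against 256, 246 and 239 in wild type (-0.22, SE 0.11, unadjusted p = 0.0976). The genotypes of Mterf4 and of Uqcc1 did not overlap, both lower in Top2b-low mice, as for 3.04% of all tested genes. Polg2 had -0.25 (SE 0.20) and Fastkd3 0.13 (SE 0.11).

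Of 13 regulators of mitochondrial biogenesis 8 were called lower in the libraries named N22, against 16.7% of all tested genes, among them the coactivators Ppargc1a (-0.27) and Pprc1 (-0.67) and the ETS factor Gabpa (-0.36), and 1 was higher, the mitochondrial deacetylase Sirt3 (0.54). Between genotypes their median was -0.030, with -0.12 (SE 0.11) for Esrra, -0.23 (SE 0.28) for Esrrb and -0.12 (SE 0.17) for Gabpa.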

How the data were processed

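Polyadenylated RNA from 3 Top2b-low and 3 wild-type brains had been sequenced with a directional kit and an MGI conversion kit, per the labels' protocols. The values analysed are a signal, normalised counts by Ensembl gene, in a single table deposited by the authors. RSEM and mm39 are named in the submitters' processing notes; their versions, and any aligner, annotation or strand setting, were not given in the sources used here. Every value was a whole multiple of the library's smallest (100% of values, tolerance 1e-06), so whole-number counts could be recovered by multiplying by factors of 0.798 to 1.69, which equal DESeq2's median-ratio size factors. Whether they are read counts or rounded estimates is not given. A count of 3 equals 1.77 to 3.76 normalised counts. Intervals on shares cover counting error only.

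Sample titles gave the groups and replicate numbers, and replicates were taken as separate mice because the series text counts mice. Libraries of a group differed by more than sampling noise (chi-square per degree of freedom 4.27 to 37.4). Symbols came from GENCODE vM21, which matched 51498 identifiers and at least 99.4% of reads. It is of GRCm38, so it served for symbols, chromosomes, strand and transcript length (median of APPRIS principal transcripts) only. Near-identical copies were sought with BLAST 2.17.0. In 8 members an expressed transcript on the opposite strand shares sequence, and their counts are uncertain to that extent.

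Log2(normalised count + 1) was tested with limma 3.58.1 in R 4.3.3 (empirical Bayes with trend, two-sided, Benjamini-Hochberg over 17391 genes with a mean of at least 10, threshold 0.05): genotype alone, and the libraries named N22 with genotype in the model. EdgeR 4.0.16 and DESeq2 1.42.0 on recovered counts, other scalings, filters and pseudocounts, left-out replicates and a replicate block were alternatives. The limma fits were run on simulated counts with known fold changes, as a check of their size and sign. No demand was set there on the share of changed genes called. Deviations of same-numbered libraries from their group means correlated at 0.33, 0.348 and 0.683. Top2b-low replicate 2 with wild type replicate 1 (0.369) and Top2b-low replicate 1 with wild type replicate 2 (0.237) correlated alike, so only the pair named N22 stood apart by its number. The block changed no call of a member.

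The members, lists, tests and the N22 split were chosen with earlier results of these data known. Genes with values in the text were the mitochondrial and Sdh genes, and in nuclear complexes I, III and IV the 2 highest and 2 lowest by genotype fold change and the highest per kb. They also include genes with non-overlapping genotypes, the 3 largest differences of the libraries named N22 in each direction, and 3 genes per list by smallest p. Ndufb4, Cox6a1, and the list genes given with an N22 difference only, were chosen after their values were seen. One gene enters the counts and group means but is not reported here by name.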

Additional observations from a re-analysis of the deposited data

How the results depend on the processing

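Members called between genotypes stayed at 0 under every alternative run. Over all genes the count of 0 became 21 in DESeq2 with an N22 term and 13 in DESeq2 with the replicate block, and 0 to 1 with a replicate left out; limma and edgeR with the block called 0. Genes called between the libraries named N22 and the others numbered 4864, 2181 without the intensity trend, and 1711 to 4576 with a replicate left out. Of the 74 members, the 44 called higher became 29 with no filter, 12 with the length trend removed (an alternative chosen after seeing the data, as was the summing of copies), 10 without the intensity trend, and 5 to 46 with a replicate left out. The 3 called lower became 1 with no filter, 6 with the length trend removed, 1 without the intensity trend, and 1 to 4 with a replicate left out. Removing the length trend takes out a shared trend by construction, and the cause of the other changes was not tested. With copies summed, mt-Atp6 in the libraries named N22 turned to -0.12. Within the pair named N22 the mitochondrial genes differed between genotypes by 0.65 (complex I), 0.20 (III), 0.37 (IV), 1.34 (V) and 0.65 (all 13), against -0.038 for all 13 in the other 4 libraries. The nuclear mean difference was -0.058, -0.054 and -0.042 under the 3 other scalings. Complex IV alone turned to 0.027 with the length trend removed, and the nuclear difference ran from -0.22 to 0.11 with a replicate left out. Of 32 named genes, 11 changed sign between genotypes in the 4 libraries not named N22, 6 with library total scaling and up to 10 with a replicate left out, none of them called in either setting. Depth limits Cox7a1 most, at 11.4 to 32.0 normalised counts.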
